A study of Drosophila melanogaster with 72 samples.

Results

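The brain of undisturbed flies was compared between the end of the night and the end of the day. The comparison rests on 6 of the 72 libraries of a study of sleep and wakefulness in Drosophila melanogaster: 3 libraries dissected at zeitgeber time (ZT, hours after lights on) 0, when the lights come on, and 3 at ZT12, when they go off. The libraries were identified by the time and treatment in their labels. All flies were of the strain iso31, were kept in a light/dark cycle at 25 °C, were left undisturbed and were taken on their second day in that cycle, and every library came from a pool of 15 whole brains. Their sex and age are not stated in the labels used here. The other libraries come from the same strain at 4 further times of day, from shaken flies, and from lines in which chosen neurons were heated into activity, with their controls.

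The circadian clock of flies is a feedback loop of transcription. The proteins CLK and CYC switch on period (per), timeless (tim), vrille (vri) and Pdp1, and the PER and TIM proteins later enter the nucleus and shut CLK and CYC off. VRI represses Clk, PDP1 activates it, and cryptochrome (cry) is a blue-light receptor that leads TIM to be degraded. In the brain the loop runs in small groups of clock neurons and in glia, so that a whole-brain library mixes them with a majority of cells that have no clock, and less RNA per cell cannot be told apart from fewer cells of a type.

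The 6 libraries held between 9736186 and 12271391 estimated counts. Levels are given below as CPM, counts scaled to library size, and they compare 1 gene between libraries, not different genes. The test was edgeR's quasi-likelihood F-test, fitted to all 18 undisturbed libraries with the replicate number as a pairing term and adjusted with Benjamini-Hochberg over 9242 genes; a gene is called when its adjusted p is under 0.05. The log2 change is ZT12 minus ZT0, with its standard error (SE) and 3 libraries per time throughout. The series describes the replicates as biological. The p-values measure the spread between pools left after shifts shared by same-numbered libraries are taken out, estimated over all 18 undisturbed libraries. Results without the pairing term are given below. Neuronal and glial markers were present in every library, with 599, 586 and 554 CPM of elav, the pan-neuronal RNA-binding protein, at ZT0 and 542, 492 and 487 CPM at ZT12. For repo, the glial transcription factor, the values were 120.3, 125 and 159 CPM at ZT0 and 121, 141 and 164 CPM at ZT12. None of the 10 neuronal markers was called. Of these, 8 had negative and 2 positive estimates, with a median log2 change of -0.084. They summed to 13101, 13280 and 13053 CPM at ZT0 and 13047, 12312 and 11835 CPM at ZT12. The glial markers are described below.

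Of the 9242 genes tested, 237 (2.56%) were called, 153 of them higher at ZT12 (1.66%) and 84 lower (0.909%). The list holds CG30497 and CG45093 with identical counts, which are 1 measurement listed under 2 names. Genes higher at dusk had a median log2 change of 0.53, and 48 of them changed by at least 1, while genes lower at dusk had a median of -0.43 and 14 changed by at least 1. The ratio of same-numbered libraries had the same sign in all 3 pairs for 151 of the 153 higher and all 84 lower genes. All 3 ZT12 libraries lay above all 3 ZT0 libraries for 103 of the higher genes (67.3%; 9.81% of all genes tested), and all lay below for 79 of the lower genes (94.0%; 10.1% of all genes tested). Both kinds of agreement are favoured in advance, because the genes were called from these same libraries. The same holds where a lack of overlap is given for called genes below. Without the pairing term 58 genes were called, 28 higher and 30 lower, and with log2 TPM (the length-normalized abundances of the second table) in limma 113, 56 higher and 57 lower, so that the excess of higher genes was not seen on those scales. When 1 library or 1 replicate number was left out in turn, 94 to 166 genes were called, and 25 higher and 25 lower genes kept their call in all 9 such fits. Where a call is said below to be lost without several libraries or numbers, each was left out by itself.

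**Figure D1:**
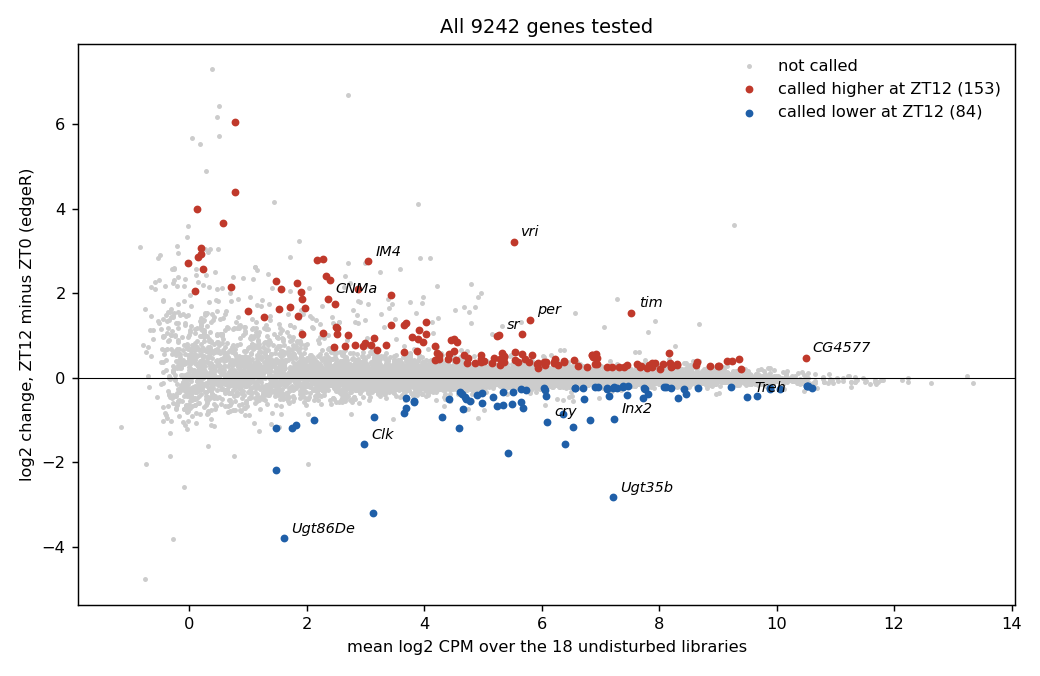
Log2 change between ZT12 and ZT0 (vertical) against mean log2 CPM over the 18 undisturbed libraries (horizontal) for the 9242 genes tested, with the 153 genes called higher in red and the 84 called lower in blue. The clock gene vri stands apart among well-counted genes at the top and Ugt35b at the bottom, and the other changes beyond 2 lie mostly among genes of low CPM.

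Among the core clock genes, per, tim and vri were higher at dusk and Clk and cry were lower, while cyc, Pdp1 and cwo were not called. The vri gene, a repressor of Clk, had 9.12, 10.2 and 10.1 CPM at ZT0 and 70.8, 104 and 102 CPM at ZT12. These are a 9.39-fold ratio of the means (log2 change 3.22 ± 0.098 (SE), adjusted p = 6.77e-17), with every ZT12 library above every ZT0 library. For tim, the partner of PER, the libraries held 88.2, 94.2 and 87.7 CPM at ZT0 and 226, 296 and 265 CPM at ZT12 (log2 change 1.54 ± 0.069 (SE), adjusted p = 1.97e-13). For per they held 31.9, 32.1 and 38.2 CPM at ZT0 and 80.4, 101 and 83.1 CPM at ZT12 (log2 change 1.37 ± 0.083 (SE), adjusted p = 6.95e-11). All 3 are direct targets of CLK and CYC, as is Pdp1, which was not called. In none of vri, tim and per did the ranges of the 2 times meet.

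The genes of the other arm moved in the opposite direction. Clk, which encodes the activator itself, had 9.03, 12.7 and 12.1 CPM at ZT0 and 3.34, 3.45 and 4.55 CPM at ZT12 (log2 change -1.57 ± 0.20 (SE), adjusted p = 2.79e-05). The photoreceptor gene cry had 83.4, 90.1 and 106 CPM at ZT0 and 42.2, 46.5 and 46.9 CPM at ZT12 (log2 change -1.04 ± 0.071 (SE), adjusted p = 7.38e-10). Both were lower in all 3 ZT12 libraries than in any ZT0 library. The 5 called clock genes kept their call without the pairing and in all 9 fits that left out a library or a number.

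The remaining 3 core genes were measured with a similar error and did not pass the test. In each of them every ZT12 library also lay above every ZT0 library, as in 9.81% of all genes tested. The partner of CLK, cyc, had 47.3, 47.9 and 49.5 CPM at ZT0 and 49.8, 49.7 and 51.7 CPM at ZT12 (log2 change 0.064 ± 0.071 (SE), adjusted p = 0.717). Pdp1, the activator of Clk, had 1321, 1328 and 1231 CPM at ZT0 and 1384, 1365 and 1416 CPM at ZT12 (log2 change 0.10 ± 0.065 (SE), adjusted p = 0.471). For cwo, a repressor of CLK targets, the values were 67.7, 69.9 and 73.5 CPM at ZT0 and 73.96, 77.98 and 80.4 CPM at ZT12 (log2 change 0.14 ± 0.075 (SE), adjusted p = 0.39). The table gives 1 value per gene, and single transcripts of Pdp1 were not analysed here.

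**Figure D2:**
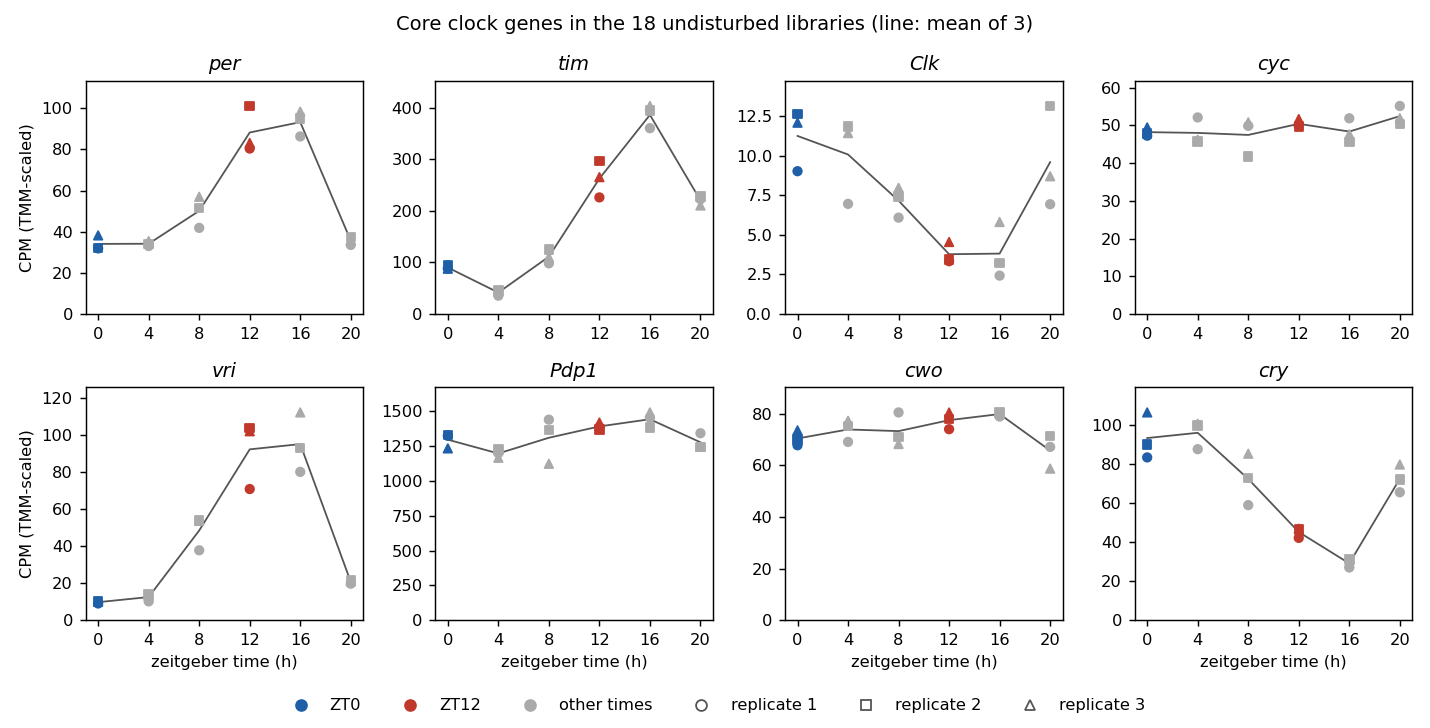
CPM of the 8 core clock genes (vertical, linear from 0) against zeitgeber time in hours (horizontal), 1 point per library, with ZT0 in blue, ZT12 in red and a line through the means of 3. At ZT12 vri, tim and per lie above and Clk and cry below their ZT0 levels, while the ZT0 and ZT12 levels of cyc, Pdp1 and cwo are close to each other.

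The 4 other undisturbed times place both groups on the daily curve. For vri the mean was 9.82 ± 0.606 CPM (SD, n = 3) at ZT0, 48.5 ± 9.24 at ZT8, 92.2 ± 18.5 at ZT12 and 95.03 ± 16.1 at ZT16. The ZT12 and ZT16 means of vri and of per (88.2 ± 11.2 and 93.3 ± 6.23 CPM) differed by less than 1 SD, whereas the means of tim were further apart, at 262 ± 35.2 CPM at ZT12 and 386 ± 22.8 CPM at ZT16. Neither time was a trough of tim, which had its lowest mean at ZT4, at 41.5 ± 5.404 CPM. Pdp1 had its lowest mean at ZT4 (1195 ± 30.3 CPM) and its highest at ZT16 (1439.8 ± 55.7 CPM), and this difference was called (log2 change 0.27, adjusted p = 0.0339). The cry mean was 45.2 ± 2.598 CPM at ZT12 and 29.2 ± 2.04 at ZT16. For Clk the lowest mean was at ZT12, at 3.78 ± 0.671 CPM, beside 3.82 ± 1.77 CPM at ZT16.

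No change was called in the genes that act on clock proteins after transcription. None of the 15 tested kinases, phosphatases and turnover genes was called, and their log2 changes ran from -0.067 to 0.19, with a median of -0.0042 beside 0.0037 for all genes tested. The casein kinase gene dco (doubletime) had 178, 175 and 179.8 CPM at ZT0 and 182, 176 and 155 CPM at ZT12, and the GSK-3 gene sgg (shaggy) had 759, 819 and 759 CPM at ZT0 and 812, 798 and 762 CPM at ZT12. The gene with the largest estimate was jet (jetlag), an F-box gene of light-driven TIM turnover, with a log2 change of 0.19 ± 0.11 (SE), adjusted p = 0.409.

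Of 9 tested genes known to cycle in fly heads or clock neurons, Mkp3, a phosphatase of the ERK kinase, was called higher. Ugt35b and CG10513 were called lower. Of all genes tested, 1.66% were called higher and 0.909% lower. Ugt35b, a UDP-glycosyltransferase, had 259, 258 and 321 CPM at ZT0 and 39.3, 39.7 and 38.1 CPM at ZT12 (log2 change -2.83 ± 0.11 (SE), adjusted p = 1.98e-11), so the ZT12 libraries held about the same level, far under any ZT0 library. CG10513 had 84.2, 72.05 and 89.4 CPM at ZT0 and 24.4, 27.5 and 31.3 CPM at ZT12 (log2 change -1.56 ± 0.13 (SE), adjusted p = 2.30e-06), again without overlap. Mkp3 had 203, 209.5 and 214 CPM at ZT0 and 263, 242 and 228 CPM at ZT12, a small difference (log2 change 0.23 ± 0.060 (SE), adjusted p = 0.0438, or 0.133 without the pairing) that lost its call in 8 of the 9 fits with a library or number left out, with adjusted p up to 0.452. The neuropeptide of the main clock neurons, Pdf, was not called (164, 138 and 162 CPM at ZT0 and 164, 168 and 199.9 CPM at ZT12, log2 change 0.20 ± 0.11 (SE), adjusted p = 0.426). For Slob, a channel-binding protein known to cycle in heads, the log2 change was 0.030 ± 0.062 (SE), adjusted p = 0.866.

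The 12 lower genes of largest change, among those with a mean log2 CPM of at least 1 and no overlap, include Clk and cry. There are 10 others, and levels under about 1 CPM among them rest on few reads. Ugt86De, another UDP-glycosyltransferase, had 5.34, 3.53 and 5.103 CPM at ZT0 and 0.286, 0.454 and 0.202 CPM at ZT12 (log2 change -3.80 ± 0.46 (SE), adjusted p = 1.12e-05). CG17777, which has no named function here, had 4.24, 4.61 and 4.61 CPM at ZT0 and 1.24, 0.817 and 0.9103 CPM at ZT12 (log2 change -2.18 ± 0.31 (SE), adjusted p = 8.76e-05). CG17386 (current symbol Achl, the clock-controlled gene achilles) had 7.93, 23.6 and 15.5 CPM at ZT0 and 0.858, 1.91 and 2.23 CPM at ZT12 (log2 change -3.21 ± 0.26 (SE), adjusted p = 3.23e-08, or 0.064 without the pairing). In all of them each ZT12 library lay below each ZT0 library, and CG17386 varied nearly 3-fold among the ZT0 libraries, whose highest value was in replicate 2. CG11407 (Acsx3, of the acyl-CoA synthetase family) had 44.2, 45.7 and 57.9 CPM at ZT0 and 10.8, 14.1 and 18.003 CPM at ZT12 (log2 change -1.79 ± 0.12 (SE), adjusted p = 3.35e-09). CG5955 (Tdh, threonine dehydrogenase) had 32.99, 30.9 and 32.3 CPM at ZT0 and 11.7, 17.2 and 13.6 CPM at ZT12 (log2 change -1.18 ± 0.13 (SE), adjusted p = 1.60e-06). CG6040 had 127, 117 and 136 CPM at ZT0 and 48.9, 58.8 and 62.7 CPM at ZT12 (log2 change -1.16 ± 0.086 (SE), adjusted p = 7.32e-09). These genes also kept their call in all 9 fits with a library or number left out. The last 2 of the group did not: CG14301 (log2 change -1.20 ± 0.31 (SE), adjusted p = 0.0354, or 0.262 without the pairing) lost it without numbers 2 or 3, ZT0 replicates 2 or 3, or ZT12 replicates 2 or 3 (adjusted p up to 0.331), and atk, a leucine-rich repeat protein (log2 change -1.19 ± 0.28 (SE), adjusted p = 0.0238, or 0.0753 without the pairing), lost it without numbers 1, 2 or 3, ZT0 replicates 1, 2 or 3, or ZT12 replicates 1 or 2 (up to 0.184).

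**Figure D3:**
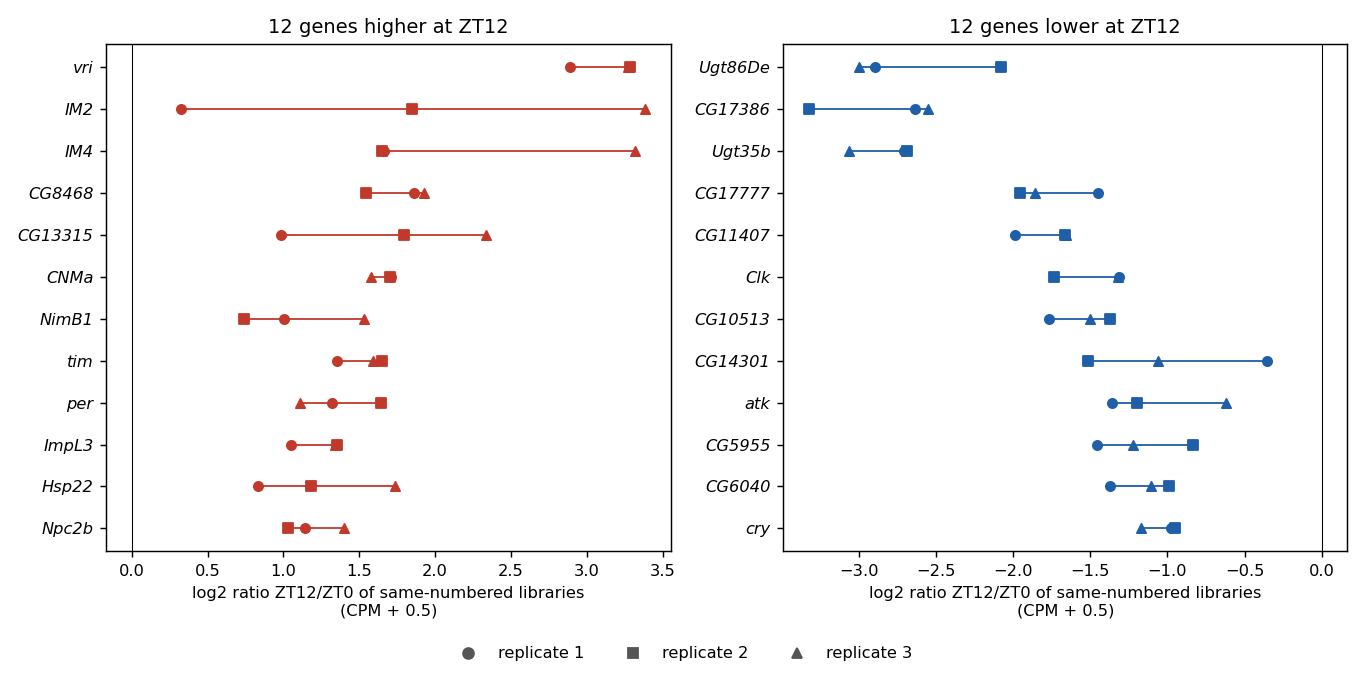
Log2 ratio of ZT12 to ZT0 for each pair of same-numbered libraries (horizontal, with 0.5 CPM added to both) for the 12 higher (left) and 12 lower (right) genes of largest change, 1 marker per replicate number and a line over their range. The pairs of tim, CNMa, Ugt35b and cry lie close together, while those of IM2 run from 0.32 in replicate 1 to 3.38 in replicate 3.

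Enzymes that conjugate foreign and waste compounds were lower at dusk in part of their families. UDP-glycosyltransferases attach sugars and glutathione transferases attach glutathione. The median log2 change of 16 tested UDP-glycosyltransferases was -0.27 beside 0.0037 for all genes tested. Of the 16, 4 were called, all lower, beside 0.909% of all genes tested. In addition to Ugt35b and Ugt86De these were Ugt35a (4.98, 4.97 and 5.93 CPM at ZT0 and 2.38, 2.905 and 2.63 CPM at ZT12, log2 change -0.997 ± 0.23 (SE), adjusted p = 0.0208, or 0.0799 without the pairing) and Ugt86Da (13.3, 14.5 and 18.6 CPM at ZT0 and 8.01, 10.3 and 12.7 CPM at ZT12, log2 change -0.58 ± 0.13 (SE), adjusted p = 0.0195, or 0.198 without the pairing). The ranges of neither overlapped, but each call was lost in 7 of the 9 fits with a library or number left out, with adjusted p up to 0.272 and 0.21. Some of these genes are close copies of each other, and the division of reads between such copies is uncertain.

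Glutathione transferases went both ways. Of 26 tested, GstD3, GstD9, GstE1 and GstE2 were called lower and GstE12 and GstS1 higher, beside 0.909% and 1.66% of all genes tested. The median was 0.072. GstE2 had 48.4, 52.97 and 53.2 CPM at ZT0 and 30.9, 32.5 and 37.7 CPM at ZT12 (log2 change -0.62 ± 0.097 (SE), adjusted p = 4.06e-04). GstD9 had 46.2, 45.2 and 47.98 CPM at ZT0 and 31.3, 24.4 and 33.3 CPM at ZT12 (log2 change -0.65 ± 0.11 (SE), adjusted p = 0.0017, or 0.11 without the pairing). For GstE1 the log2 change was -0.71 ± 0.13 (SE), adjusted p = 0.00247, and for GstD3 -0.56 ± 0.12 (SE), adjusted p = 0.00927. All 4 lower members were lower in every ZT12 library than in any ZT0 library. This was so for 10.1% of genes tested and 94.0% of genes called lower. GstE2 kept its call in all 9 fits with a library or number left out, GstD9 lost it without number 2 (adjusted p = 0.0544), GstE1 without numbers 1 and 3 (0.0628 and 0.0976) and GstD3 in 5 of them, without numbers 1 or 2, ZT0 replicate 1, or ZT12 replicates 1 or 2 (up to 0.233). The higher pair was weaker, with overlapping ranges, at 0.35 ± 0.089 (SE), adjusted p = 0.0315, or 0.428 without the pairing for GstS1 and 0.34 ± 0.090 (SE), adjusted p = 0.0483, or 0.583 without the pairing for GstE12. Among 55 tested cytochrome P450 genes, the oxidases that act before conjugation, Cyp9b2 and Cyp6a23 were called higher and none lower, beside 1.66% and 0.909% of all genes tested, with a median of 0.13. The level of Cyp9b2 was 0.369, 2.08 and 1.73 CPM at ZT0 and 0.381, 8.17 and 7.99 CPM at ZT12, so the ZT12 library of replicate 1 was as low as at ZT0, and the call (1.87 ± 0.36 (SE), adjusted p = 0.00417, or 0.569 without the pairing) was lost without numbers 2 or 3, ZT0 replicates 2 or 3, or ZT12 replicate 3 (up to 0.174). Cyp6a23 had 0.645, 0.814 and 1.56 CPM at ZT0 and 1.24, 2.905 and 5.76 CPM at ZT12 (1.63 ± 0.40 (SE), adjusted p = 0.0258, or 0.221 without the pairing) and lost its call in 7 of those fits, with adjusted p up to 0.283.

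Of the 10 glial markers, nrv2, a sodium pump subunit, and Gs2, glutamine synthetase, were called lower and none higher, beside 0.909% and 1.66% of all genes tested. The 10 had 5 positive and 5 negative estimates, up to 0.34 for GLaz (adjusted p = 0.276), and their median was 0.031. In nrv2 the libraries held 848, 922 and 1008 CPM at ZT0 and 666, 665 and 726 CPM at ZT12 (log2 change -0.43 ± 0.073 (SE), adjusted p = 8.94e-04, or 0.123 without the pairing), and the call was lost without number 3 (adjusted p = 0.147). Gs2 had 1673, 1720.0 and 1762 CPM at ZT0 and 1526, 1457 and 1339.8 CPM at ZT12 (log2 change -0.26 ± 0.058 (SE), adjusted p = 0.0185, or 0.0872 without the pairing) and lost its call without numbers 1, 2 or 3, ZT0 replicate 3, or ZT12 replicates 2 or 3 (up to 0.169). The summed level of the 10 markers was 4369, 4486 and 4755 CPM at ZT0 and 4051, 3901 and 3994 CPM at ZT12, most of which came from Gs2, Eaat1 and nrv2. The other 8 markers were not called. Among them the glutamate transporter Eaat1 had 871, 834 and 844 CPM at ZT0 and 857, 770.5 and 749 CPM at ZT12, with a log2 change of -0.10, and repo, given above, had one of 0.073.

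The following genes were picked after their values were seen. Inx2 and Inx3 encode innexins, the gap junction proteins of insects, which in the fly brain couple glial cells. Inx2 had 199, 197 and 230.5 CPM at ZT0 and 105, 103 and 110.3 CPM at ZT12 (log2 change -0.97 ± 0.079 (SE), adjusted p = 3.23e-08). Inx3 had 58.5, 62.6 and 68.6 CPM at ZT0 and 39.2, 42.7 and 45.5 CPM at ZT12 (log2 change -0.58 ± 0.087 (SE), adjusted p = 2.02e-04). Both fell without overlap and kept their call in all 9 fits with a library or number left out. The other 3 innexins tested, ogre, shakB and Inx7, were not called, with log2 changes of -0.26, -0.13 and -0.059. CG9657 (rumpel), a transporter of ensheathing glia, had 123, 117 and 125 CPM at ZT0 and 79.8, 84.1 and 93.6 CPM at ZT12 (log2 change -0.50 ± 0.062 (SE), adjusted p = 1.59e-05). Rh50, of the Rhesus ammonium transporter family, had 235, 227 and 237 CPM at ZT0 and 175, 159.7 and 168 CPM at ZT12 (log2 change -0.48 ± 0.069 (SE), adjusted p = 1.42e-04), and Amph (amphiphysin, a membrane-bending protein) had 363, 374 and 388 CPM at ZT0 and 272, 287 and 252 CPM at ZT12 (log2 change -0.47 ± 0.061 (SE), adjusted p = 2.79e-05). All 3 also kept their call in those 9 fits.

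Genes that neuronal activity is known to induce were called higher at dusk in 2 of 8 cases, beside 1.66% of all genes tested. The zinc finger gene sr (stripe), the fly relative of mammalian EGR factors, had 21.7, 30.01 and 27.98 CPM at ZT0 and 54.2, 56.6 and 50.5 CPM at ZT12 (log2 change 1.02 ± 0.16 (SE), adjusted p = 0.00263). CG14186 had 219, 255 and 229 CPM at ZT0 and 352, 370.1 and 324 CPM at ZT12 (log2 change 0.58 ± 0.067 (SE), adjusted p = 6.42e-06). Every ZT12 library lay above every ZT0 library in both, and sr lost its call only without number 1 (adjusted p = 0.123) among the 9 fits with a library or number left out. The other 6 had positive estimates that did not pass the test, with 0.21 ± 0.11 (SE), adjusted p = 0.367 for the nuclear receptor Hr38 and 0.074 ± 0.076 (SE), adjusted p = 0.689 for kay (kayak, fly FOS). Arc1, a capsid-forming gene of synaptic plasticity, had 46.7, 108 and 54.1 CPM at ZT0 and 87.1, 166 and 73.5 CPM at ZT12 (log2 change 0.66 ± 0.28 (SE), adjusted p = 0.293) and was highest in replicate 2 at both times. The median of the list was 0.23. Both called genes were not higher at ZT16 than at ZT4: the log2 change there was -0.36 for CG14186 (adjusted p = 0.00395) and -0.22 for sr (adjusted p = 0.687).

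Of 32 neuropeptide genes tested, CNMa, NPF, Dh44 and Proc were called higher and none lower, beside 1.66% and 0.909% of all genes tested. Positive estimates were found for 28 of the 32, beside 4704 of all 9242 genes, and the median log2 change was 0.20. CNMa, which encodes the CNMamide peptide, had 1.84, 2.44 and 2.14 CPM at ZT0 and 7.15, 9.08 and 7.38 CPM at ZT12 (log2 change 1.87 ± 0.22 (SE), adjusted p = 6.04e-06), a 3.68-fold ratio of means with close agreement among replicates, and kept its call in all 9 fits with a library or number left out. The 3 others changed less. NPF, the fly neuropeptide F gene of feeding and arousal, had 53.4, 50.5 and 52.6 CPM at ZT0 and 65.5, 62.7 and 73.3 CPM at ZT12 (log2 change 0.36 ± 0.092 (SE), adjusted p = 0.0358, or 0.109 without the pairing). Dh44, a diuretic hormone of the clock output path in the pars intercerebralis, had 266, 263 and 271 CPM at ZT0 and 317, 318 and 334 CPM at ZT12 (log2 change 0.28 ± 0.074 (SE), adjusted p = 0.0435, or 0.17 without the pairing). Proc (proctolin) had 139, 149.9 and 154 CPM at ZT0 and 174, 164 and 203 CPM at ZT12 (log2 change 0.29 ± 0.067 (SE), adjusted p = 0.0195, or 0.0925 without the pairing). In these 3 each ZT12 library lay above each ZT0 library, as in 9.81% of genes tested and 67.3% of genes called higher. The 3 lost their call in 7, 8 and 5 of those 9 fits, with adjusted p up to 0.265, 0.301 and 0.196. Hug (hugin) was next, with 119.9, 153 and 163 CPM at ZT0 and 205, 206 and 257 CPM at ZT12 and a log2 change of 0.61 ± 0.16 (SE), adjusted p = 0.0754.

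Some chaperones and translocon subunits of the secretory path were slightly higher. Of 17 tested genes of the endoplasmic reticulum (ER) stress list, 5 were called, all higher, beside 1.66% of all genes tested. The list median was 0.11. Xbp1, the transcription factor of the unfolded protein response, had 251, 269.8 and 287 CPM at ZT0 and 313, 330.1 and 364 CPM at ZT12 (log2 change 0.32 ± 0.065 (SE), adjusted p = 0.00645, or 0.129 without the pairing). Hsc70-3, the ER chaperone BiP, had 252, 267 and 273 CPM at ZT0 and 325, 322 and 312 CPM at ZT12 (log2 change 0.28 ± 0.058 (SE), adjusted p = 0.00843). The protein disulfide isomerase ERp60 changed by 0.25 ± 0.052 (SE), adjusted p = 0.00752, or 0.0925 without the pairing. The translocon subunits Sec61alpha and Sec61beta changed by 0.24 ± 0.062 (SE), adjusted p = 0.0332, or 0.158 without the pairing, and by 0.44 ± 0.092 (SE), adjusted p = 0.00927, or 0.0584 without the pairing, in that order. In all 5 each ZT12 library lay above each ZT0 library, as in 9.81% of genes tested and 67.3% of genes called higher. The 5 lost their call in 2 (Xbp1, without numbers 1 and 2) to 8 (Sec61alpha) of the 9 fits with a library or number left out. Signal peptidase subunits picked after their values were seen were also called higher, Spase12 (11.3, 9.13 and 10.6 CPM at ZT0 and 16.3, 14.6 and 17.6 CPM at ZT12, log2 change 0.64 ± 0.13 (SE), adjusted p = 0.00603) and Spase25 (log2 change 0.34 ± 0.088 (SE), adjusted p = 0.0358, or 0.0799 without the pairing). Of those 9 fits Spase12 lost its call in 3, without numbers 1 or 3 or ZT12 replicate 3, and Spase25 in each. The ER stress sensors Ire1, PEK and Atf6 were not called, with log2 changes of -0.15, 0.11 and -0.068. In the heat shock list 1 of 23 genes was called higher and none lower, beside 1.66% and 0.909% of all genes tested. It was the mitochondrial small heat shock gene Hsp22 (7.93, 10.9 and 6.58 CPM at ZT0 and 14.5, 25.4 and 23.1 CPM at ZT12, log2 change 1.30 ± 0.30 (SE), adjusted p = 0.0411, or 0.0945 without the pairing). The call of Hsp22 was lost without numbers 1 or 2, ZT0 replicates 1, 2 or 3, or ZT12 replicates 2 or 3 (up to 0.231). The Hsp70 genes are near-identical copies whose separate levels are uncertain, and none was called.

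Few ribosomal protein genes passed the test. Of 84 tested, 4 (RpL14, RpL31, RpL35A and RpL37a) were called higher, beside 1.66% of all genes tested, and none lower. A positive estimate was found for 79 of the 84, beside 4704 of all 9242 genes, and the median log2 change was 0.16. RpL31 had 467, 485 and 458 CPM at ZT0 and 573, 594 and 672 CPM at ZT12 (log2 change 0.38 ± 0.087 (SE), adjusted p = 0.024, or 0.0549 without the pairing), and its call was lost without number 3, ZT0 replicates 1 or 3, or ZT12 replicate 3 (up to 0.227). For the other 3 the log2 change was 0.29 to 0.30, each lost in 8 of the 9 fits with a library or number left out. Ribosomal protein genes took 3.19% to 3.32% of counts at ZT0 and 3.31% to 4.07% at ZT12, with the highest share in ZT12 replicate 3. All 4 called genes had their highest mean of the 6 times at ZT20, which for RpL31 was 689 ± 62.9 CPM. The ZT20 libraries stood apart, with a mean of 4.82% of counts from the mitochondrial genome, beside 2.45% to 2.62% at the other 5 times, and 4.73% from ribosomal protein genes, beside 3.26% to 3.78%. The part of this in the ZT20 means was not tested. On log2 TPM the log2 change of RpL31 was 0.30 (limma, adjusted p = 0.0212). Of all 59 named genes, 23 lost their call on log2(TPM + 1). Over the 21 alternative settings RpL31 lost its call in 6, and RpL14, RpL35A and RpL37a lost theirs in 15, 14 and 13.

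**Figure D4:**
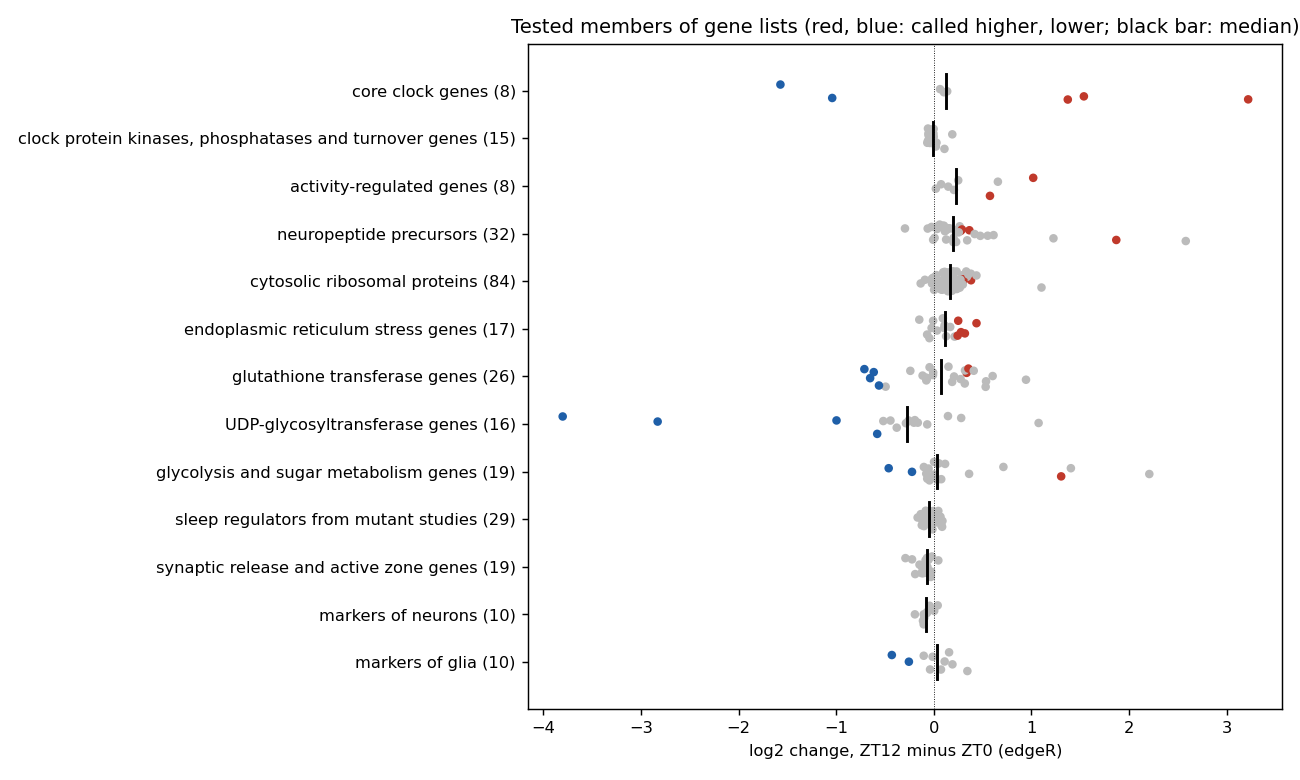
Log2 change between ZT12 and ZT0 (horizontal) of the tested members of 13 gene lists, 1 point per gene, red and blue where called higher or lower, with a black bar at each list's median and the number tested in brackets. The clock genes and the UDP-glycosyltransferases spread widest, the ribosomal proteins sit mostly right of 0, and the kinases, sleep regulators and synaptic genes lie close to 0.

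Among 19 tested genes of sugar metabolism, trehalase and glycogen synthase were called lower at dusk and lactate dehydrogenase higher. Of all genes tested, 0.909% were called lower and 1.66% higher. Treh, trehalase, which splits the blood sugar of flies into glucose, had 861, 857 and 786 CPM at ZT0 and 559, 629 and 629 CPM at ZT12 (log2 change -0.46 ± 0.059 (SE), adjusted p = 2.23e-05), without overlap, and kept its call in all 9 fits with a library or number left out. Glycogen synthase (GlyS) had 127, 128 and 139 CPM at ZT0 and 109, 110.3 and 118 CPM at ZT12 (log2 change -0.22 ± 0.054 (SE), adjusted p = 0.0242, or 0.112 without the pairing) and lost its call in each of those fits, with adjusted p up to 0.204. ImpL3 (Ldh, lactate dehydrogenase) was higher, with 9.49, 13.9 and 9.63 CPM at ZT0 and 20.2, 36.3 and 25.2 CPM at ZT12 (log2 change 1.30 ± 0.26 (SE), adjusted p = 0.0203), a call lost without numbers 2 or 3, ZT0 replicates 1 or 3, or ZT12 replicates 2 or 3 (up to 0.206). The other 16 of 19 tested genes of sugar metabolism were not called; the log2 change of the phosphofructokinase gene Pfk was -0.10 ± 0.058 (SE), adjusted p = 0.421, and that of pyruvate kinase (PyK) -0.077 ± 0.059 (SE), adjusted p = 0.572. The regulator Pfrx, which makes and removes the activator of phosphofructokinase, was picked after its values were seen. It had 212, 211 and 223 CPM at ZT0 and 267, 263 and 294 CPM at ZT12 (log2 change 0.35 ± 0.055 (SE), adjusted p = 3.59e-04) and kept its call in all 9 fits.

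In lipid metabolism 2 of 14 genes were called, both higher, beside 1.66% of all genes tested. SREBP, the transcription factor of lipid synthesis, had 202, 206 and 229.9 CPM at ZT0 and 244, 249.6 and 259 CPM at ZT12 (log2 change 0.24 ± 0.061 (SE), adjusted p = 0.0323, or 0.169 without the pairing). The desaturase Desat1 had 327, 335 and 356 CPM at ZT0 and 368, 405 and 565 CPM at ZT12 (log2 change 0.38 ± 0.096 (SE), adjusted p = 0.0483, or 0.361 without the pairing), with its highest value in ZT12 replicate 3. Without that library Desat1 gave an adjusted p of 0.255 and SREBP 0.127, and their calls were lost in 6 and 8 of the 9 fits with a library or number left out. Npc2b, a sterol-binding protein of the NPC2 family, was among the 12 higher genes of largest change, with 5.34, 8.14 and 6.09 CPM at ZT0 and 12.4, 17.2 and 16.9 CPM at ZT12 (log2 change 1.25 ± 0.17 (SE), adjusted p = 6.08e-05), and kept its call in all 9 fits with a library or number left out. Of 16 genes of amino acid metabolism, Ddc, the decarboxylase that makes dopamine and serotonin, was higher (471, 459.6 and 478 CPM at ZT0 and 572, 556 and 567 CPM at ZT12, log2 change 0.27 ± 0.053 (SE), adjusted p = 0.00583), lost only without numbers 1 and 2 (0.125 and 0.0692). The tyrosine and tryptophan hydroxylases that act before it, ple and Trh, were not called, with log2 changes of -0.040 ± 0.17 (SE), adjusted p = 0.941 and -0.13 ± 0.083 (SE), adjusted p = 0.496. Lower were Gs2, given above, and Got1, aspartate aminotransferase (-0.21 ± 0.058 (SE), adjusted p = 0.0498, or 0.362 without the pairing), which overlapped between times. Of all genes tested, 1.66% were called higher and 0.909% lower.

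After vri, the largest changes among the 12 named higher genes belonged to immune peptides, and they rose unevenly between libraries. The Bomanins and Daishos are short peptides secreted after Toll signalling. IM4 (Dso1) had 0.829, 2.35 and 1.73 CPM at ZT0 and 3.72, 8.44 and 21.7 CPM at ZT12 (log2 change 2.76 ± 0.50 (SE), adjusted p = 0.0138, or 0.367 without the pairing), and IM2 (BomS2) had 0.737, 0.723 and 0.576 CPM at ZT0 and 1.05, 3.903 and 10.7 CPM at ZT12 (log2 change 2.79 ± 0.64 (SE), adjusted p = 0.0372, or 0.371 without the pairing). Each ZT12 library lay above each ZT0 library, but ZT12 replicate 3 was far above replicate 1. The call of IM4 was lost without number 1 or ZT0 replicates 2 or 3 (adjusted p up to 0.132) and that of IM2 without numbers 1, 2 or 3, ZT0 replicates 2 or 3, or ZT12 replicates 1 or 3 (up to 0.32). The whole family was gathered after these values were seen, and its calls include IM4 and IM2. Its share of calls is therefore favoured in advance. Of 12 members tested, 5 were called, all higher (the others CG15067, IM3 and IM14), beside 1.66% of all genes tested. The median of the 12 was 2.53. The summed level of the family was 7.19, 10.7 and 10.6 CPM at ZT0 and 15.8, 35.3 and 87.8 CPM at ZT12. The classical antimicrobial peptide genes were not called: 6 were tested, with estimates from 0.71 to 6.16 and SEs up to 3.48, with the highest value in ZT12 replicate 3 for 5 of them and in ZT12 replicate 1 for Drs (drosomycin). AttC, for example, had 0.369, 0.452 and 0.247 CPM at ZT0 and 0.381, 1.18 and 22.5 CPM at ZT12 (adjusted p = 0.32).

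Further secreted immune genes, also picked after their values were seen, were higher at dusk. The thioester protein gene Tep2 had 18.4, 21.4 and 29.9 CPM at ZT0 and 37.9, 42.4 and 58.2 CPM at ZT12 (log2 change 0.99 ± 0.097 (SE), adjusted p = 4.11e-07, or 0.0936 without the pairing). Spn27A, a serpin that restrains Toll signalling and melanization, had 10.8, 14.1 and 15.6 CPM at ZT0 and 18.2, 22.4 and 27.3 CPM at ZT12 (log2 change 0.74 ± 0.11 (SE), adjusted p = 1.59e-04, or 0.0805 without the pairing). Spn77Ba, another serpin, had 3.04, 7.14 and 7.41 CPM at ZT0 and 6.099, 15.3 and 12.4 CPM at ZT12 (log2 change 0.94 ± 0.16 (SE), adjusted p = 8.94e-04, or 0.533 without the pairing). The ranges of Spn77Ba overlapped between times, and those of Tep2 and Spn27A did not. Of 14 serpins tested, 3 were called, all higher, beside 1.66% of all genes tested, and the serpin median was 0.57. This count includes Spn27A and Spn77Ba, which were picked after their values were seen, so it is favoured in advance. Tep2, Spn27A and Spn77Ba kept their call in all 9 fits with a library or number left out. The protease gene SPE, which activates the Toll ligand, had 0.829, 0.723 and 1.56 CPM at ZT0 and 0.858, 3.63 and 6.57 CPM at ZT12 (log2 change 1.68 ± 0.38 (SE), adjusted p = 0.0169, or 0.526 without the pairing). Its ranges overlapped, and its call was lost without numbers 2 or 3, ZT0 replicates 2 or 3, or ZT12 replicate 3 (up to 0.416). NimB1, of the Nimrod family, had 0.461, 0.723 and 1.07 CPM at ZT0 and 1.43, 1.54 and 4.05 CPM at ZT12 (log2 change 1.58 ± 0.37 (SE), adjusted p = 0.0195, or 0.236 without the pairing) and lost its call in 7 of those fits.

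Markers of tissues next to the brain also differed between these libraries. Fat body markers summed to 791, 808 and 1382 CPM at ZT0 and 916, 1270.4 and 2553 CPM at ZT12, with the yolk protein gene Yp1 at 83.95, 83.2 and 239.8 CPM at ZT0 and 118, 267 and 769 CPM at ZT12. Of 10 fat body markers 7 were tested, 6 with positive estimates, and none was called. Of the list, Lsp2, Fbp1 and Obp99b stayed under 1 CPM in all 6 libraries; Lsp2 and Fbp1 are known mainly from the larval fat body. Hemocyte markers summed to 403, 365 and 496 and 419, 398 and 554 CPM, muscle markers to 7.83, 51.5 and 69.2 and 17.8, 204 and 116 CPM, the latter lowest in replicate 1 at both times. Of the 8 hemocyte and 7 muscle markers tested, 7 and 7 had positive estimates, and none was called. The flight muscle genes Act88F, TpnC4 and TpnC41C and the hemocyte gene He were at or near 0. Photoreceptor markers, from the retina, summed to 679, 3949.9 and 1172 CPM at ZT0 and 2489, 5752 and 1337 CPM at ZT12. Among them ninaE, the main rhodopsin, had 28.5, 1487 and 6.996 CPM at ZT0 and 1340.1, 3015 and 6.37 CPM at ZT12, so that it was high in both libraries of replicate 2 and in ZT12 replicate 1 and low in the others (adjusted p = 0.348), and 9 of 10 had positive estimates with none called. The part of these tissues in the immune and metabolic results was not tested. Over the called genes, ZT12 replicate 3 was the highest ZT12 library for 99 of the 153 higher genes and replicate 1 the lowest for 112, and at ZT0 replicate 1 was the lowest for 109. Without ZT12 replicate 3, 56 genes were called higher and 45 lower.

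**Figure D5:**
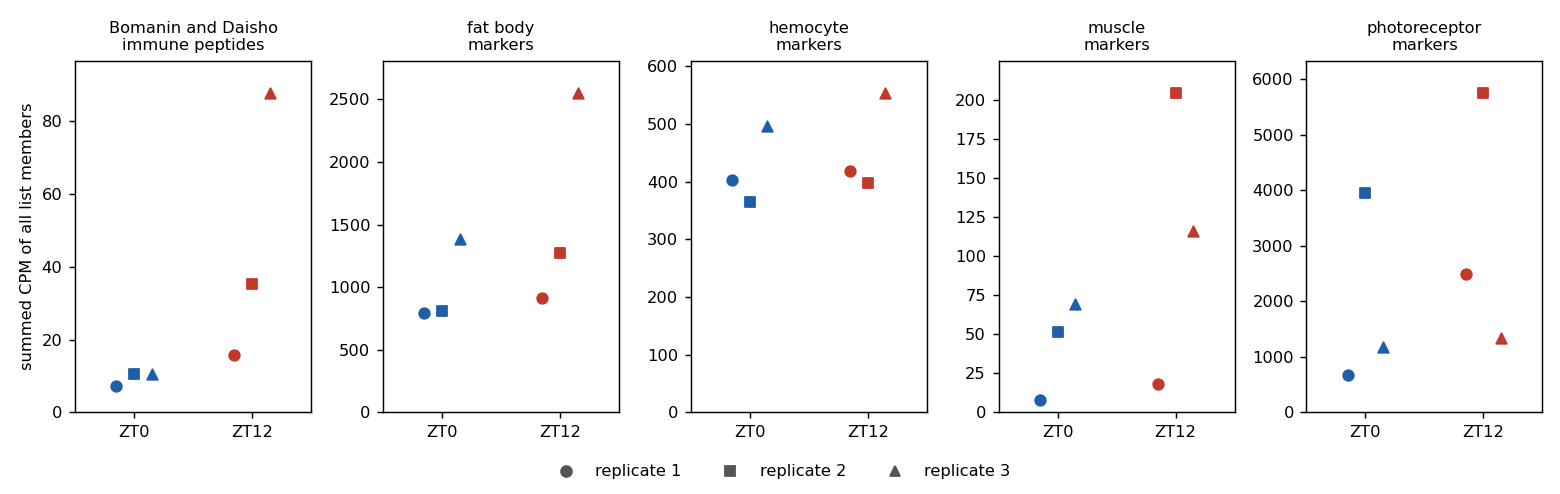
Summed CPM (vertical, linear from 0) of the Bomanin and Daisho genes and of 4 sets of tissue markers in the 6 libraries, ZT0 in blue and ZT12 in red, 1 marker shape per replicate number. The immune peptides and the fat body markers were both highest in ZT12 replicate 3, and photoreceptor markers were highest in replicate 2 at both times.

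The remaining named higher genes were 2 of low count. CG8468 had 0.737, 2.53 and 1.07 CPM at ZT0 and 4.003, 8.35 and 5.46 CPM at ZT12 (log2 change 2.10 ± 0.31 (SE), adjusted p = 1.59e-04, or 0.158 without the pairing) and kept its call in all 9 fits with a library or number left out. CG13315 had 2.304, 3.797 and 4.36 CPM at ZT0 and 5.05, 14.4 and 24.1 CPM at ZT12 (log2 change 1.97 ± 0.30 (SE), adjusted p = 0.0018, or 0.322 without the pairing) and lost it without number 2 (adjusted p = 0.0785). Outside the naming rule, a few more genes were picked after their values were seen. CG4577 had 1160.0, 1140.1 and 1179 CPM at ZT0 and 1619.6, 1546 and 1669 CPM at ZT12 (log2 change 0.47 ± 0.065 (SE), adjusted p = 5.96e-05), IP3K2, an inositol trisphosphate kinase, had 29.5, 42.8 and 37.9 CPM at ZT0 and 68.2, 75.98 and 80.6 CPM at ZT12 (log2 change 1.03 ± 0.15 (SE), adjusted p = 0.0017), and jeb (jelly belly), the ligand of the receptor ALK, had 532, 545 and 514 CPM at ZT0 and 709.8, 679.6 and 683 CPM at ZT12 (log2 change 0.38 ± 0.062 (SE), adjusted p = 5.47e-04). The bHLH repressor gene h (hairy) had 5.71, 8.77 and 9.301 CPM at ZT0 and 11.7, 17.6 and 23.1 CPM at ZT12 (log2 change 1.13 ± 0.15 (SE), adjusted p = 3.73e-05, or 0.141 without the pairing). All 4 kept their call in those 9 fits. In all 4 each ZT12 library was above each ZT0 library, as in 9.81% of genes tested and 67.3% of genes called higher.

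Apart from the neuropeptides and the activity-regulated genes, the lists of neuronal genes held no called gene. There was none among 29 sleep regulators known from mutants (log2 changes from -0.17 to 0.089, median -0.046), 21 potassium, sodium and calcium channels (median -0.053), 23 nicotinic, GABA and glutamate receptors (median -0.053) and 19 genes of synaptic release (18 with negative estimates, median -0.071). The potassium channel gene Sh (Shaker) had 2229, 2279 and 2119 CPM at ZT0 and 2281, 2168 and 2116 CPM at ZT12, and na, the sodium leak channel of clock neurons (narrow abdomen), had 581, 558 and 585 CPM at ZT0 and 574, 543 and 506 CPM at ZT12 (log2 change -0.089 ± 0.064 (SE), adjusted p = 0.538). The active zone gene brp (bruchpilot) had 1320.0, 1282 and 1376 CPM at ZT0 and 1352, 1284 and 1162 CPM at ZT12 (log2 change -0.071 ± 0.073 (SE), adjusted p = 0.691). Neither were any of 27 phototransduction genes or the 13 protein genes of the mitochondrial genome called, with medians of 0.17 and -0.11. In the antioxidant list 1 of 16 was called higher, GstS1, given above, beside 1.66% of all genes tested. The SEs of Sh, na and brp were 0.064 to 0.073, and the smallest change called in any gene was 0.20 on the log2 scale.

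A second pair of undisturbed times, ZT16 against ZT4, shares no library with ZT12 against ZT0, although both were fitted together. It called 127 of the 9242 genes (1.37%), 31 higher and 96 lower (0.335% and 1.04%). Of the 153 genes higher at ZT12, 91 had a higher estimate at ZT16 than at ZT4 (59.5%, beside 49.7% of all genes tested), and 12 of them were called there. Of the 84 lower genes, 58 had a lower estimate (69.0%, beside 50.3%), and 25 were called. Ugt35b, CG10513, CNMa, per, tim, vri, Clk and cry were among those called at both pairs of times, whereas the log2 change from ZT4 to ZT16 was -0.33 for CG17386 (adjusted p = 0.652) and -0.095 for CG11407 (adjusted p = 0.843). Over the 6 times, ZT12 had the highest mean for 73 of the 153 higher genes and the lowest for 60 of the 84 lower genes, and ZT0 was the opposite extreme for 113 and 37. ZT20 was the opposite extreme for 32 and 35. The genes were chosen for a difference between ZT12 and ZT0 in these libraries, which favours both times as extremes in advance.

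Libraries of other genotypes, each genotype taken at only 1 of ZT0 and ZT12, were used as a side view. R85C10, a GAL4 line without the TrpA1 channel, was held at 29 °C for 12 h and dissected at ZT12 (3 libraries). The 4 other such lines, Hot cell, R21H11, R65H02 and R60F09, were held at 29 °C for 3 h and dissected at ZT0 (12 libraries). Line, length of warming and time of day cannot be told apart there, so only positions are given, with CPM scaled over all 72 libraries. Of the 153 genes higher at dusk in iso31, 21 lay above all 12 ZT0 libraries in all 3 R85C10 libraries (1.99% of all genes tested did) and 0 lay below all of them. Of the 84 lower genes, 22 lay below all 12 (1.61% of all genes tested did) and 1 above. CNMa had 5.92, 5.15 and 7.22 CPM there, against 0.851 to 3.203 in the 12, and Ugt35b had 39.3, 35.8 and 38.2 CPM against 238 to 341. The clock genes per, tim and vri lay above and Clk and cry below. Pdp1, with no call in iso31, also lay above, at 1239, 1527 and 1118 CPM against 899 to 1106. IM2 lay within the range, with 0.779, 0.135 and 0.367 CPM against 0 to 0.826, as did IM4, sr, CG14186 and RpL31.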

How the data were processed

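Brains were dissected in saline with channel blockers, and RNA from pools of 15 was isolated with PicoPure, made into NEBNext Ultra II libraries and sequenced in 72 libraries of 24 groups. The authors' deposited tables give estimated counts per gene and, in a second table, TPM; kallisto 0.46.1 is named in the submitters' processing notes, with no role stated. Genome build and annotation are not given in the sources used here, so no coordinates or sequences are printed. Of the deposited count values 89.0% lie within 0.02 of a whole number, and they were rounded. Columns of 72 libraries were mapped by name, with 0 left unmapped. Among 13898 genes, 73 names matched no current RefSeq symbol or synonym (assembly Release 6 plus ISO1 MT).

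Genes were filtered with filterByExpr, scaled with TMM and tested with quasi-likelihood F-tests (robust) in edgeR 4.0.16 under R 4.3.3, over the 18 undisturbed libraries (7904113 to 13435817 counts; 4175587 to 13435817 over all 72) with time and replicate number as terms and 10 residual degrees of freedom. The SE is the absolute log2 change divided by the square root of F. Same-numbered ZT0 and ZT12 libraries deviated together from their group means (correlations 0.37 to 0.39 in 3 pairs), so the numbers pair the samples, although the labels do not say what they share. The mean of -0.19 for different numbers is no separate support, because deviations from a group mean cancel out within each time. A chi-square statistic per gene was at least 3.11 for every pair of replicates, above sampling noise. The fits were tested on simulated data.

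The members, gene lists and tests were chosen with earlier results of these data known. Named were the 8 core clock genes, the 12 higher and 12 lower called genes of largest change whose log2 CPM averaged 1 or more, without overlap between times, and up to 5 called members per list; 28 lists were used, and a gene outside this rule is marked as picked after its values were seen. Alternatives were no pairing, DESeq2 1.42.0, RLE scaling, no filter, the 6 libraries alone with and without pairing (the last added after the data were seen), no ZT20, a length-trend offset (lowess span 0.3), limma 3.58.1 on log2(TPM + 1) or log2(TPM + 0.1), with or without a filter of 1 TPM in 3 libraries, a 1.5-fold requirement, and leaving out each library or number. Python 3.11.15, pandas 2.3.3 and, for the plots, matplotlib 3.10.9 were used.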

Additional observations from a re-analysis of the deposited data

How the results depend on the processing

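Without the replicate block 58 genes were called (28 higher, 30 lower), all 58 of them among the 237, and with ZT0 and ZT12 libraries alone the counts were 515 (344 and 171) with the block and 62 (34 and 28) without it. On log2(TPM + 1) in limma 113 were called (56 higher, 57 lower), on log2(TPM + 0.1) 120 (61 and 59), and on log2(TPM + 1) with no filter 102 (48 and 54). A 1.5-fold requirement left 26 (13 and 13). Leaving out 1 library or number gave 94 to 166 genes, 56 to 119 higher and 32 to 53 lower. DESeq2 (268), RLE scaling (247), no filter (236), no ZT20 (247) and the length-trend offset (339) stayed within 1.5 times the 237. The share of higher calls was 64.6% as reported, 48.3% without the block and 49.6% on log2(TPM + 1); the cause was not tested. No named gene changed sign in any setting. Of the 237, 35 were called in every setting but the 1.5-fold one. CPM values under about 1 rest on few reads, and 11 of the higher genes had a mean under 1 log2 CPM.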

Other observations

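Some groups of genes gathered after their values were seen have not been described above. Because of that choice, their shares of calls are favoured in advance and are no test against the shares of all genes. Of 12 tested subunits of the translation initiation factor eIF3, 3 were called lower at ZT12 and none higher. Of all genes tested, 0.909% were called lower and 1.66% higher. Among the 12 subunits, 10 had negative and 2 positive estimates, and the median log2 change was -0.11. The largest was eIF3-S9 (eIF3b), with 231, 237 and 241 CPM at ZT0 and 187, 204 and 202 CPM at ZT12 (edgeR log2 change -0.26 ± 0.053 (SE), adjusted p = 0.0065). Of all 43 translation initiation and elongation factors tested, 5 were called lower and 1 higher, beside 0.909% and 1.66% of all genes tested. Among the 43, 25 had negative and 18 positive estimates, and the median was -0.023. The higher gene was CG17737 (eIF1), with 81.6, 93.5 and 77.9 CPM at ZT0 and 102, 95.9 and 110.4 CPM at ZT12 (edgeR log2 change 0.29 ± 0.072 (SE), adjusted p = 0.0312, or 0.0941 without the pairing), a call lost in 6 of 9 fits with a library or number left out. The elongation factor genes EF2 and Ef1alpha100E were among those called lower, with log2 changes of -0.20 ± 0.049 (SE), adjusted p = 0.0302, or 0.204 without the pairing, and -0.20 ± 0.052 (SE), adjusted p = 0.0358, or 0.134 without the pairing, while Thor, the translational repressor 4E-BP, was called higher (8.39, 9.94 and 9.14 CPM at ZT0 and 10.7, 20.6 and 21.2 CPM at ZT12, log2 change 0.90 ± 0.18 (SE), adjusted p = 0.00752, or 0.236 without the pairing). Of 3 enzymes that break down juvenile hormone, 2 were called lower, beside 0.909% of all genes tested. Jheh1 had 19.9, 23.6 and 27.4 CPM at ZT0 and 10.3, 11.8 and 15.3 CPM at ZT12 (edgeR log2 change -0.93 ± 0.13 (SE), adjusted p = 7.02e-05, or 0.116 without the pairing), Jheh2 had 60.2, 63.6 and 83.4 CPM at ZT0 and 42.6, 46.8 and 64.1 CPM at ZT12 (log2 change -0.44 ± 0.073 (SE), adjusted p = 7.69e-04, or 0.428 without the pairing), with overlapping ranges, and the third gene tested was not called. Kr-h1, the transcription factor that juvenile hormone induces, was also called lower, at -0.26 ± 0.069 (SE), adjusted p = 0.0411, or 0.233 without the pairing. Of the 9 fits with a library or number left out, the calls of EF2, Ef1alpha100E and Kr-h1 were lost in each, that of Thor in 5, that of Jheh2 in 1 (without number 1) and that of Jheh1 in none. The 8 subunits of the cytosolic chaperonin all had positive estimates with a median of 0.22. Of them 1, Cct5, was called higher, beside 1.66% of all genes tested (0.38 ± 0.091 (SE), adjusted p = 0.0241, or 0.0683 without the pairing). Its call was lost in 7 of those 9 fits.

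A few values belong to single libraries. CG31821 was called higher at 6.06 ± 1.18 (SE), adjusted p = 0.0185, or 0.533 without the pairing, but it had 0, 0.0904 and 0 CPM at ZT0 and 0, 8.99 and 0 CPM at ZT12, so the call rests on ZT12 replicate 2, and it was lost without number 2, ZT0 replicates 1 or 2, or ZT12 replicate 2. Pdh, a retinal pigment-cell dehydrogenase, had 19.4, 81.8 and 22.96 CPM at ZT0 and 17.7, 26.9 and 17.8 CPM at ZT12 and was not called (adjusted p = 0.33).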
